A study of Mus musculus with 18 samples.

Results

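The comparison described here set the infarcted left ventricle of mice after 24 h of coronary ligation against sham-operated hearts. It used 6 of the 18 libraries of the series, 3 mice a side and 1 library per mouse, and took in every gene of the deposited count table. All mice were male C57BL/6JR animals, 12 weeks old at the experiment. In the 24 h group the left anterior descending coronary artery was tied, and the heart was taken 24 h later. In the sham group, which the labels give as 0 h, the animals had the same surgery and the suture was passed without being tied. No sham group is labelled 24 h, so the time since surgery and the ligation cannot be told apart. The other groups were ligated for 10 min or for 1, 6 or 72 h, and the libraries from 6 and 72 h serve below to place the 24 h values in time. The labels name myocardial tissue as the source and give cardiomyocytes as the cell type, but describe no sorting or isolation step. The values are therefore taken as those of whole tissue. Poly(A)-containing RNA was sequenced. Fewer cells of a type and less RNA per cell cannot be told apart in such libraries.

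When a coronary artery is closed, the muscle it feeds loses oxygen and fuel, and cardiomyocytes begin to die within hours. Dying cells release signals that call neutrophils out of the blood first and monocytes after them, while fibroblasts and surviving muscle at the border start to rebuild the tissue. The adult heart makes most of its ATP by burning fatty acids in mitochondria, and it relies on fast calcium and potassium currents for each beat.

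The 6 libraries held 18296807 to 25062351 counts. Marker genes of ventricular cardiomyocytes summed to 67059, 63173 and 61390.2 CPM (counts-per-million, scaled by the trimmed mean of M-values, TMM) in sham and to 41068, 41051 and 26967 CPM at 24 h, and those of T and NK cells were near 0 in both groups. The 24 h mice varied more than the sham mice: the median SD of a gene's log2 CPM was 0.249 among the 24 h mice and 0.120 among the sham mice. Replicate 3 at 24 h stood apart. Over the 500 most variable genes, the distance in log2 CPM between libraries was 16.6 to 17.2 within sham, 24.9 between 24 h replicates 1 and 2, and 32.3 and 48.3 from replicate 3 to the others. From sham, replicate 3 lay at 93.8 to 95.1, replicate 1 at 67.5 to 69.3 and replicate 2 at 60.9 to 63.2. Where leaving out replicate 3 moved the fold change or ratio of a called gene by over 1.5 times, the value without it follows in square brackets. Mitochondrially encoded genes took 25.3, 26.1 and 23.8% of the sham counts and 22.8, 17.7 and 24.0% of the 24 h counts, and these ranges overlapped (exact permutation test, two-sided, p = 0.2). The 20 most abundant genes took 34.7, 35.0 and 33.1% and 29.8, 25.2 and 28.9%, with no overlap and the smallest p that 3 against 3 mice can give (exact permutation test, two-sided, p = 0.1).

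Of 16311 genes tested, 7149 (43.8%) differed between 24 h and sham by edgeR's quasi-likelihood test at a Benjamini-Hochberg adjusted p under 0.05, the threshold behind every call below. Of these, 3860 genes (23.7% of those tested) were higher at 24 h and 3289 (20.2%) were lower. At least 2-fold changes were called for 1612 genes upward (9.88%) and 806 downward (4.94%). The 3 mice of a group did not overlap the 3 of the other for 8766 genes (53.7%). Without 24 h replicate 3 there were 3095 higher and 2371 lower calls. Replicate 3 was the library farthest from the sham mean for 73.5% of the higher calls and 78.3% of the lower ones. Under library-size scaling in place of TMM, the calls were 5558 higher and 1805 lower, and the median log2 fold change over the genes tested moved from 0.01 to 0.20, and small changes below are to be read against that shift. The plot of gene lists shows how 50 functional lists divided, from neutrophil genes, all of whose tested members were higher, to the genes of the respiratory chain and the citric acid cycle, all of whose tested members were lower. Genes near 0 in sham, several neutrophil genes among them, could pass the filter on low counts only through ligated groups. For lists with such genes, the share called higher was partly set by the filter.

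**Figure D1:**
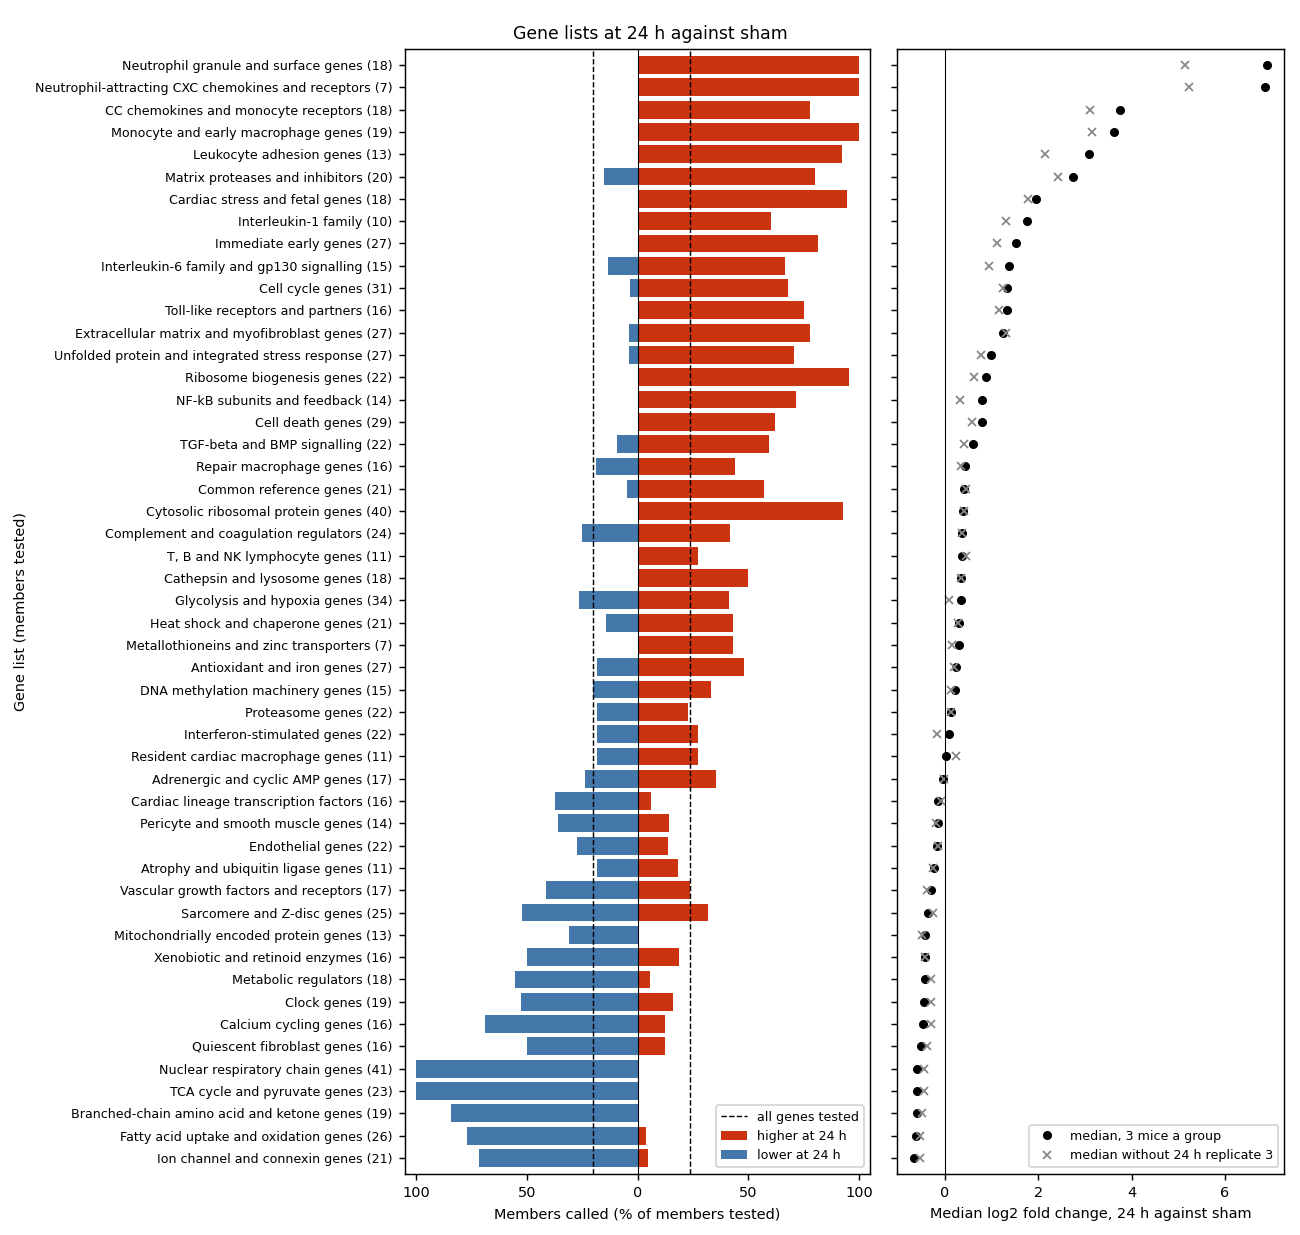
Left, share of each gene list's tested members called higher (red, right) or lower (blue, left) at 24 h against sham, with dashed lines at the shares of all genes tested (23.7% higher, 20.2% lower). Right, each list's median log2 fold change with all mice (dots) and without 24 h replicate 3 (crosses), with inflammatory lists at the top and metabolic and ion channel lists at the bottom.

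Among the chemokines that draw neutrophils, Cxcl2 and Cxcl3 were at the foot of detection in sham hearts and Cxcl1 was low, and each rose in all 24 h hearts. All 7 tested genes of the CXC list were called higher, with a median log2 fold change of 6.87 (the same with Cxcl3 at its bound), and all were called without 24 h replicate 3 (median 5.24). The list had 9 genes, of which Cxcl15 and Cxcr1 did not pass the filter on low counts. A gene without sham counts, such as Cxcl3, could pass that filter only through ligated groups, so the share called higher was partly set by it. Cxcl1, Cxcl2 and Cxcl3 lie close together on chromosome 5 and encode related ligands of the neutrophil receptor CXCR2. Their promoters, and that of the cytokine gene Il6, are shown because each holds an NF-kB motif, GGGA and TTCC with any 2 bases between them, searched on both strands, within the bases just before the start site. The stretches are from RefSeq (GRCm38.p6), 5′ to 3′ along the gene, end at the base before the start, and carry the motif in capitals; in the CXC genes matches on both strands overlap and were joined.
Cxcl1 (chr5:90891125-90891244, + strand): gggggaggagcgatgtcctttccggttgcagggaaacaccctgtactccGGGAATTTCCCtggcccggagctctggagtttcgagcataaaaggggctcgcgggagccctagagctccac
Cxcl2 (chr5:90903779-90903898, + strand): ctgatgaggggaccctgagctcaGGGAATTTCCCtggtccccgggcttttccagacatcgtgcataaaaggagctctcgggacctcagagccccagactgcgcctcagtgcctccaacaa
Cxcl3 (chr5:90785981-90786100, + strand): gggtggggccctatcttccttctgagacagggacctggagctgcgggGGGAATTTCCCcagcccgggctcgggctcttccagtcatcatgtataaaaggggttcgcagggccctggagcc
Il6 (chr5:30012994-30013113, + strand): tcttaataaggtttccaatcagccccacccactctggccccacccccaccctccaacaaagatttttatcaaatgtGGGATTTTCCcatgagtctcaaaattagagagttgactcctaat
In the windows of 250 bases before to 50 bases after each start, the motif was found in 3 of 6 windows of the CXC list, 0 of 11 of the CC chemokine list and 1.49% of the 14779 windows of all genes tested. Among windows of genes called at least 2-fold higher the share was 1.83%, and among those of genes at least 2-fold lower 1.17%. The 3 CXC windows with the motif were those of Cxcl1, Cxcl2 and Cxcl3, shown above because they hold it. In other lists searched, it was in 3 of 13 windows of the NF-kB list, 0 of 15 of the interleukin-1 list and 0 of 27 of the immediate early list. The AP-1 motif TGANTCA was in 10.4% of the windows of genes at least 2-fold higher, 6.74% of those at least 2-fold lower and 5.56% of all. Motifs of the factors C/EBP, STAT3, ERR, MEF2 and AHR were searched as well. That of C/EBP was in 11.2% of the windows of genes at least 2-fold higher, 10.4% of those at least 2-fold lower and 8.75% of all. These are matches of letters and were not tested as binding sites. RefSeq windows were found for 11596 of the 16310 gene symbols tested.

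Cxcl3 had no counts in any sham mouse, and reached 23.9, 1.59 and 193 CPM in 24 h replicates 1, 2 and 3. Taken against 3 counts in each sham library, its mean at 24 h was at least 496-fold higher, and at least 86.8-fold without replicate 3 (adjusted p = 0.00916). For Cxcl2 the sham mice had 0.253, 0.156 and 0.0888 CPM and the 24 h mice 12.0, 2.02 and 140.3 CPM. The log2 fold change of Cxcl2 was 8.25 ± 1.72 (SE, n = 3 mice a group, adjusted p = 0.00206) and 5.36 without replicate 3. Both genes had their highest level in replicate 3 and their lowest in replicate 2, and neither overlapped sham. Cxcl1 was less uneven, at 1.16, 1.45 and 1.33 CPM in sham and 8.29, 9.13 and 39.1 CPM at 24 h, a 14.1-fold [6.61] rise. Cxcl5, another CXCR2 ligand, rose 147-fold [66.5] and reached 17.4, 15.7 and 77.3 CPM. The receptor gene Cxcr2 itself rose (log2 fold change 6.87 [5.24]), as did Ppbp (3.74 [2.69]) and Pf4 (1.68), chemokine genes of platelets. Paralogs in this family are similar in sequence, and how reads shared between them were counted was not stated.

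**Figure D2:**
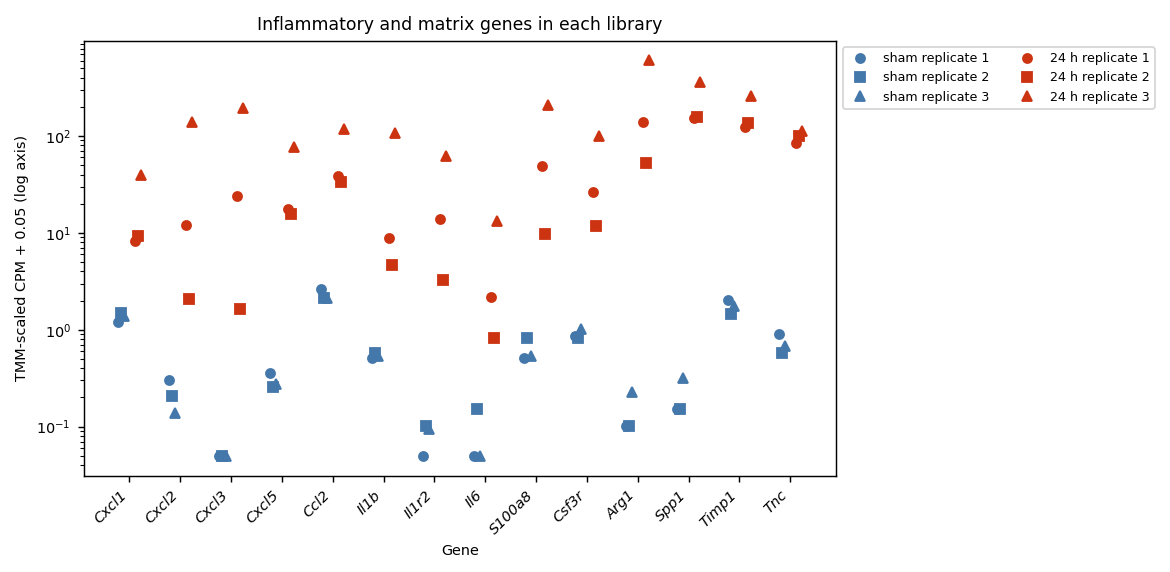
TMM-scaled CPM plus 0.05 (log axis) of 14 inflammatory and matrix genes in each of the 3 sham (blue) and 3 ligated (red) mice, with a symbol for each replicate number. No 24 h value falls among the sham values, and for most genes replicate 3 (triangles) is highest and replicate 2 (squares) lowest, while Tnc and Spp1 vary less among the 24 h mice.

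Chemokines for monocytes also rose. In the CC chemokine list 14 of 18 tested genes were higher and 0 lower (1 lower without replicate 3), with a median log2 fold change of 3.75. Ccl2, the main ligand for the monocyte receptor CCR2, went from 2.58, 2.07 and 2.09 CPM in sham to 38.3, 33.3 and 117 CPM at 24 h, a 27.8-fold [15.9] difference with replicates 1 and 2 close together and replicate 3 above them. Ccl7, which signals through the same receptor, rose 16.2-fold, and Ccr2 25.7-fold. Ccl3 (log2 fold change 5.13 [3.17]), Ccl4 (5.85 [4.05]) and their receptor Ccr1 (4.85 [3.82]) moved the same way. Ccl17 and Ccl22, ligands of CCR4, were at or under 3 counts in each sham library, and the ratios of their summed counts at 24 h to those in sham, corrected for depth, were 99.1 (exact 95% interval 17.4 to 3948) and 42.6 (14.3 to 209). Such intervals, here and below, cover counting error only and not the spread between mice. The members not called were Ccl5, Ccl11, Cx3cl1 and the receptor Cx3cr1, the last at 5.31, 7.0 and 7.60 CPM in sham and 5.91, 11.5 and 4.23 CPM at 24 h. Ccl8 and Ccl24 lost their calls when at least 1 library was left out.

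Within the interleukin-1 family, the genes that restrain the cytokine moved along with the cytokine. Il1b went from 0.455, 0.519 and 0.489 CPM to 8.85, 4.63 and 109 CPM, an 81.9-fold rise whose log2 value fell from 6.36 to 3.77 without replicate 3. Il1r2, the decoy receptor, was at 0, 0.0519 and 0.0444 CPM in sham and at 13.8, 3.22 and 61.8 CPM at 24 h, a ratio of summed counts of 699 (193 to 5776) [245, 67.5 to 2033]. Il1rn, the receptor antagonist, reached 13.7, 6.15 and 86.1 CPM, a ratio of 268 (130 to 668) [84.0, 40.4 to 209.9]. By contrast, the signalling receptor Il1r1 was not called (log2 fold change 0.48, adjusted p = 0.0942), nor was the interleukin-33 receptor gene Il1rl1 (-0.28, adjusted p = 0.555). In all, 6 of 10 tested family members were higher and 0 lower, among them Il18 at 4.94-fold.

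Ligands of the interleukin-6 family rose and the gene of the shared receptor chain was not called. Il6 reached 2.11, 0.778 and 13.1 CPM from 2 counts in the 3 sham libraries together, a ratio of 141 (exact 95% interval 38.8 to 1171), and of 42.5 (11.3 to 358) without replicate 3. Osm, which encodes oncostatin M, rose 62.2-fold [13.3], Il11 39.7-fold [14.2] and Lif 12.3-fold [5.11], and the feedback inhibitor gene Socs3 13.3-fold [5.76]. Receptor genes were divided. Osmr rose (log2 fold change 1.38), Lifr fell (-0.61), Il11ra1 fell (-0.47), and Il6st, which encodes the common subunit gp130, was at 0.18 (95% confidence interval -0.08 to 0.45, not called). The list held 10 higher and 2 lower calls among 15 (1 lower under library-size scaling), beside 43.8% called among all genes.

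Of 14 genes for NF-kB subunits and their feedback, 10 were higher and 0 lower, and without 24 h replicate 3 only 5 were called higher. Bcl3 (2.16 [1.48] in log2 fold change), Nfkbiz (1.98 [1.39]) and Nfkbie (1.94), which encode nuclear and cytosolic IkB proteins, changed most. The subunit genes changed less, with Nfkb2 at 1.03, Relb at 0.97 and Rela at 0.48 (not called without replicate 3), and Nfkb1 was not called. Among Toll-like receptor genes and partners 12 of 16 were higher. Cd14, the co-receptor for bacterial and cell debris ligands, rose 11.7-fold [3.99], Tlr2 4.46-fold [2.25] and Tlr4 3.16-fold, whereas Tlr3 was not called. Tlr2 lost its call without 24 h replicate 3, sham replicate 1 or sham replicate 3.

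Neutrophil genes had a median close to that of the CXC list. All 18 tested members, of 22 listed, rose, and 17 of them were called without replicate 3, when the median log2 fold change went from 6.90 to 5.15. Members near 0 in sham, such as Mmp8 and Trem1, could pass the filter on low counts only through ligated groups. The 6 neutrophil markers summed to 3.03, 4.56 and 3.07 CPM in sham and to 173, 43.0 and 744 CPM at 24 h, with replicate 3 far above replicate 2 (exact permutation test, two-sided, p = 0.1). All 6 were found, and Retnlg alone had no counts in some sham libraries. The part of neutrophil content in the inflammatory changes above was not tested. S100a8, a calcium-binding alarm protein of neutrophils, was at 0.455, 0.778 and 0.489 CPM in sham and 48.9, 9.69 and 208 CPM at 24 h. Csf3r, the receptor for granulocyte colony-stimulating factor, went from 0.809, 0.778 and 0.977 to 26.6, 11.7 and 100.3 CPM. Surface receptors followed the same order, with Trem1 at a ratio of summed counts of 453 (exact 95% interval 125 to 3745) [139, 38 to 1153] and Fpr1, the formyl peptide receptor, at 130.4 (35.8 to 1082) [30.5, 8.03 to 259]. Mmp8 and Mmp9, proteases of neutrophil granules, were higher too: Mmp8 went from 1 count in sham to 348 at 24 h, a ratio of 303 (53.9 to 11982) [156, 27.4 to 6193], and Mmp9 rose 48.7-fold [17.2]. Genes of granules that neutrophils make in the bone marrow (Ltf, Camp, Elane and Mpo) did not pass the filter on low counts, and Ngp was called in the full comparison but not in each of those that left out a library.

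Monocyte and macrophage genes rose less unevenly. The monocyte and macrophage markers summed to 249.6, 261 and 282 CPM in sham and 573, 598 and 706 CPM at 24 h, with no overlap. All 19 genes of the monocyte and early macrophage list were higher (median 3.62, and 3.16 without replicate 3). Arg1, an arginine-degrading enzyme of wound macrophages, had 0.0506, 0.0519 and 0.178 CPM in sham and 140.1, 52.3 and 602 CPM at 24 h, a log2 fold change of 11.33 ± 1.33 [9.87] (adjusted p = 3.68e-05). Spp1, which encodes osteopontin, went from 0.101, 0.104 and 0.267 CPM to 154, 158 and 363 CPM (log2 fold change 10.39 ± 0.92, adjusted p = 4.10e-06), and replicates 1 and 2 were nearly level. Chil3 had a ratio of summed counts of 610.0 (exact 95% interval 296 to 1518) [313, 151 to 779], Itgam rose 26.2-fold [13], and Lgals3, the galectin-3 gene, 32.9-fold. The general macrophage genes Csf1r and Adgre1 rose much less, 1.54-fold and 1.91-fold.

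Genes linked to later or resident macrophages were mixed. In the repair list 7 of 16 were higher (12 under library-size scaling), including Trem2 (2.53) and Gpnmb (2.16), and 3 were lower, including Apoe (-0.48) and Pltp (-0.98). Of 11 genes of resident cardiac macrophages, 3 rose and 2 fell (1 fell without replicate 3, and the counts were 3 and 0 under library-size scaling). These counts were close to the shares of all genes tested, 23.7% higher and 20.2% lower. Timd4, a receptor for dying cells on resident macrophages, was lower (-1.11, adjusted p = 0.0277) but lost its call when a library was left out. Mrc1, the mannose receptor gene, rose 1.85-fold. Lymphocyte genes were scarce in both groups. Of 11 tested, 3 were called higher, near the 23.7% of all genes tested, and each lost its call when a library was left out. The summed T cell markers were 1.16, 1.56 and 0.533 CPM in sham and 1.04, 0.884 and 1.44 CPM at 24 h.

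Of 22 interferon-stimulated genes 6 were higher and 4 lower, close to the shares of all genes tested (23.7% higher and 20.2% lower). The list's median was 0.09. Without replicate 3 the calls were 4 higher and 6 lower, and the median changed sign to -0.18. Cxcl10, a chemokine for T cells, went from 0.0506, 0.519 and 0.4 CPM to 1.34, 0.778 and 7.17 CPM, and its call was lost without replicate 3 (adjusted p = 0.0645). Its neighbour Cxcl9, which signals through the same receptor, went the other way, from 6.02, 6.64 and 7.15 CPM in sham to 1.73, 1.95 and 1.03 CPM at 24 h, with no overlap (log2 fold change -2.05 ± 0.28, adjusted p = 2.99e-05). Gbp2 (-0.70) and Gbp3 (-0.85), guanylate-binding proteins induced by interferon-gamma, were also lower, whereas Zbp1 (2.31 [1.56]), Mx1 (1.74) and Isg15 (1.35 [0.75]) were higher. In the proteasome list the immunoproteasome genes Psmb9 (-0.47) and Psmb10 (-0.34) were slightly lower, and each lost its call without replicate 3.

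Several adhesion genes of the vessel wall rose, and the vascular receptor genes Kdr and Aplnr fell. In the leukocyte adhesion list 12 of 13 genes were higher and 0 lower, but several, such as Itgam and Itgb2, are leukocyte integrins. Of those made by endothelium, Selp (P-selectin, also found in platelets) rose 35.8-fold [18.9], Sele (E-selectin) 4.98-fold and Icam1 2.21-fold. The endothelial list itself had 3 higher and 6 lower calls among 22 (7 and 4 under library-size scaling). Its summed markers were 1218, 1148 and 1267 CPM in sham and 874, 1047 and 1088 CPM at 24 h, lower at 24 h in all 3 mice (exact permutation test, two-sided, p = 0.1). Of the 5 markers, Kdr and Tie1 were lower in every 24 h mouse, whereas Pecam1, Cdh5 and Egfl7 overlapped sham. Pecam1 was at 230, 223 and 236 CPM in sham and 238, 230 and 290 CPM at 24 h. The part of these markers in the changes of endothelial genes was not tested. Kdr, the main VEGF receptor, fell from 311, 259.8 and 327 CPM to 129.8, 201 and 171 CPM (log2 fold change -0.84), and the apelin receptor gene Aplnr fell 2.75-fold (log2 fold change -1.46, and -2.05 without replicate 2) while the ligand gene Apln rose 3.59-fold [2.32]. The list of vascular growth factors and receptors held 4 higher and 7 lower calls among 17 (4 and 5 under library-size scaling). Among all genes tested 23.7% were higher and 20.2% lower. Among vascular growth factors, Angptl4 rose 46.9-fold [18.6] and Pgf 5.44-fold [3.37], Vegfb and Vegfc fell, and Vegfa was not called (-0.31, 95% confidence interval -0.67 to 0.05).

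Extracellular matrix genes were mostly higher, most so in replicate 2. Of 27 genes of the matrix and myofibroblast list 21 were higher and 1 lower (2 without replicate 2), with a median of 1.25. Tnc, an adhesive matrix protein of wounds, went from 0.859, 0.519 and 0.622 CPM to 85.6, 101 and 112 CPM, a 148-fold difference that was 7.12 on the log2 scale without replicate 3, against 7.21 with it. Postn, an activated fibroblast gene, rose from 19.9, 17.5 and 25.9 CPM to 63.7, 113 and 65.5 CPM, highest in replicate 2. The fibrillar collagens moved less: Col1a1 2.27-fold, Col3a1 2.38-fold and Col1a2 1.63-fold, the last not called without 24 h replicate 2 or sham replicate 2. The contractile myofibroblast gene Acta2 was not called (-0.10, 95% confidence interval -0.58 to 0.38). Thrombospondins were split, with Thbs1 up 47.8-fold [17.3], from 6.07, 5.65 and 7.82 to 150.1, 76.0 and 712 CPM, and Thbs2 down from 27.1, 44.5 and 32.6 to 18, 15.1 and 12.0 CPM (adjusted p = 9.49e-04).

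Enzymes that cut the matrix and their inhibitors changed in opposite senses within families. Of 20 tested, 16 were higher and 3 lower. Timp1, an inhibitor of metalloproteases, was at 1.97, 1.40 and 1.69 CPM in sham and 122, 138 and 262 CPM at 24 h (log2 fold change 6.68 ± 0.35, adjusted p = 2.18e-08), whereas Timp2 (-0.73) and Timp3 (-0.51) fell, Timp3 losing its call without 24 h replicate 2 or 3 or sham replicate 2. Mmp2, the fibroblast gelatinase, fell (-0.87), and Mmp14, which activates it, rose (2.44). Adamts4, an aggrecan-cutting protease, rose 179-fold [76.1], Adam8 132-fold [65.7] and Adam12 51.5-fold. The plasminogen activator gene Plau (3.20-fold) and its receptor gene Plaur (20.3-fold [9.96]) rose, from a complement and coagulation list with 10 higher and 6 lower among 24. In that list the soluble complement genes C1s1 (-0.49) and C1ra (-0.53) fell while the anaphylatoxin receptor genes C3ar1 (2.21) and C5ar1 (2.17 [1.55]) rose.

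The TGF-beta family showed 13 higher and 2 lower calls among 22. The activin subunit genes Inhba (18.9-fold [10.1]) and Inhbb (16.0-fold [8.24]) rose together with the genes of the proteins that bind activin, Fst (5.70-fold [3.73]) and Fstl3. Fstl3 was at 2.02, 2.18 and 2.04 CPM in sham and 24.2, 26.5 and 30.1 CPM at 24 h, among the tightest increases (log2 fold change 3.69 ± 0.25, adjusted p = 4.59e-08). Gdf15, a stress cytokine, rose 21.8-fold [13.7]. Tgfb1 (0.83) and Tgfb2 (1.66) rose and Bmp6 fell (-1.05).

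Genes of resting fibroblasts fell more often than they rose, 8 against 2 of 16. Dcn, the small matrix proteoglycan decorin, fell from 400.1, 426 and 409.6 CPM to 283, 231 and 198 CPM. Gsn (-1.19), Htra3 (-1.38) and Smoc2 (-0.89) fell too, while Pdgfra, the fibroblast lineage receptor, rose (0.70). The summed fibroblast markers, which hold both resting and matrix genes, were 695, 681 and 717 CPM in sham and 596, 669.8 and 502 CPM at 24 h. In the mural cell list 5 of 14 fell and 2 rose (1 without replicate 2), and the list's median of -0.16 turned to 0.04 under library-size scaling. Rgs5, a pericyte gene, fell from 612, 645 and 636 CPM to 361, 328 and 248 CPM, and Abcc9 and Kcnj8, the subunits of the vascular ATP-sensitive potassium channel, fell (log2 fold changes -1.10 and -0.71). The summed pericyte and smooth muscle markers, of which Rgs5 was the most abundant, were 888, 934 and 929 CPM in sham and 565, 549 and 444 CPM at 24 h (exact permutation test, two-sided, p = 0.1). Rgs5, Kcnj8 and Myh11 were below sham in every 24 h mouse, and Cnn1, at a low level, was above it. Pdgfrb overlapped sham, at 93.8, 97.3 and 98.1 CPM in sham and 90.1, 98.1 and 95.4 CPM at 24 h. The part of these markers in the changes of mural cell genes was not tested.

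In heart muscle, genes of the adult sarcomere's motor and regulatory proteins fell, and genes linked to stretch or to the fetal heart rose. Of 25 sarcomere and Z-disc genes 13 were lower (10 without replicate 3 and 9 under library-size scaling) and 8 higher. The list's median was -0.37, and -0.18 under library-size scaling. Myh6, the fast adult myosin heavy chain, went from 24639, 23160.0 and 22722 CPM in sham to 12169, 11310.0 and 6488 CPM at 24 h (log2 fold change -1.23 ± 0.19, adjusted p = 7.41e-05). Myh7, the slow chain, rose from 265, 239.5 and 215 to 922, 633 and 394 CPM (log2 fold change 1.44 ± 0.40, adjusted p = 0.00939), and was lowest in replicate 3, where Myh6 was lowest as well. Myl2 (-1.01), Tnni3 (-0.87), Mybpc3 (-0.95) and Tcap (-1.13) fell, as did the giant spring protein gene Ttn (-0.79). The actin gene Actc1 and the troponin gene Tnnt2 were not called, at -0.40 and -0.34. The stretch-linked genes Ankrd1 (5.46-fold), Xirp2 (3.89-fold) and Csrp3 (1.62-fold) rose. The 8 summed ventricular markers, which include Myh6, Myl2 and Tnni3, did not overlap between the groups (exact permutation test, two-sided, p = 0.1), with none at 0. Their part in the decreases of contractile, ion channel and fuel genes was not tested.

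**Figure D3:**
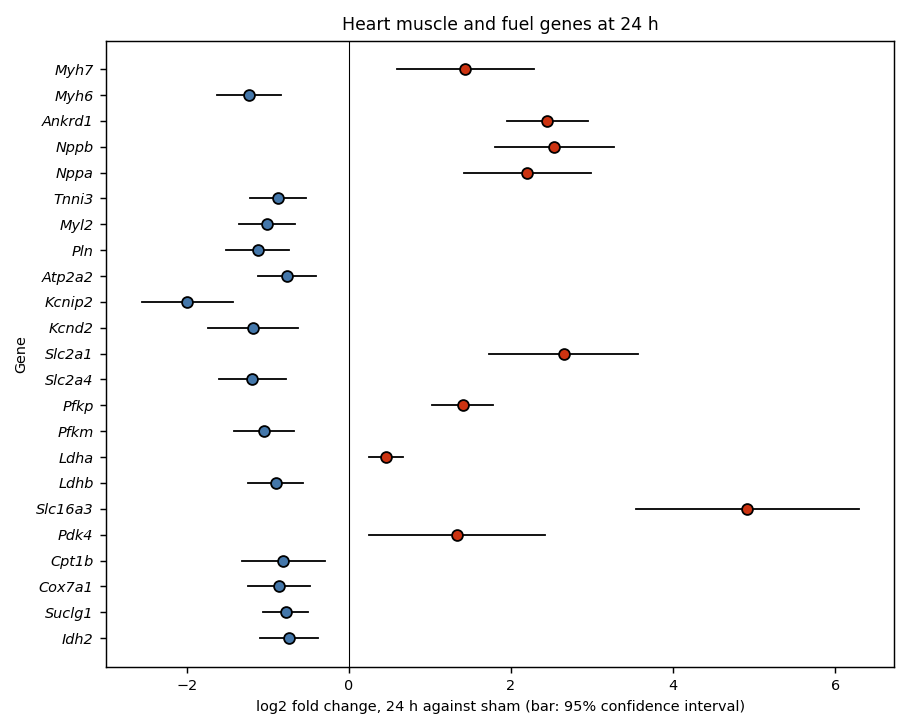
Log2 fold change at 24 h against sham (horizontal axis) of 23 heart muscle and fuel genes, with 95% confidence intervals from edgeR; all 23 were called (red higher, blue lower). Within pairs of related genes, Myh7, Slc2a1, Pfkp and Ldha lie above 0 and Myh6, Slc2a4, Pfkm and Ldhb below it.

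Stress genes of the myocardium rose nearly throughout: 17 of 18 were higher and 0 lower. Nppb, which encodes the natriuretic peptide BNP, went from 271, 213 and 203 CPM to 1182, 1313 and 1485 CPM, and Nppa from 206, 89.4 and 140.2 CPM to 636, 808 and 560.0 CPM. Neither overlapped sham and neither followed the replicate order of the inflammatory genes. Hspb1 rose 4.84-fold and Flnc, an actin crosslinker of the Z-disc, 3.89-fold. The genes of cardiac transcription factors mostly moved less. Nkx2-5 (0.11) and Srf (0.05) were not called, 6 of 16 fell (3 without replicate 3 and 2 under library-size scaling), and only Hand2 rose (0.74). Hopx, a cofactor without DNA binding of its own, fell 2.33-fold.

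Calcium handling genes fell in 11 of 16 cases (7 without replicate 3 and 6 under library-size scaling) and rose in 2. Atp2a2, the pump that refills the sarcoplasmic reticulum, fell from 10259, 10442 and 9963 CPM to 8058, 5660.0 and 4411 CPM (log2 fold change -0.76, adjusted p = 0.00173), and its inhibitor gene Pln fell as well (-1.13). Hrc, a calcium-binding protein of that store, went from 1089, 1018 and 964 CPM to 517, 363 and 299 CPM. The exceptions were Fkbp1b (1.39), a ryanodine receptor partner, and the sodium-calcium exchanger gene Slc8a1 (0.76), whose call depended on the library left out.

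Ion channel genes had a median of -0.66, with 15 of 21 lower and 1 higher (2 higher under library-size scaling). The lower calls were 12 under library-size scaling, 11 without replicate 3 and 12 without replicate 2. Kcnip2, the accessory subunit of the fast transient outward potassium current, fell from 209, 204 and 213 CPM in sham to 75.4, 52.1 and 29.6 CPM at 24 h, a 3.98-fold difference with replicate 3 lowest. The pore gene of that current, Kcnd2, fell 2.26-fold. Kcne1 (-1.58), Hcn2 (-1.47) and Kcnj3 (-1.04) fell as well. The gap junction gene Gja1 was not called (0.24). For the ion channel list the median under library-size scaling was -0.47. In the signalling pathway of the beta-adrenergic receptors, the receptor kinase gene Grk5 rose 3.12-fold and the adenylyl cyclase genes Adcy5 (-0.62) and Adcy6 (-0.45) fell.

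Nuclear genes of mitochondrial fuel oxidation were lower. All 41 nuclear respiratory chain genes fell, by small and similar amounts, from -0.35 for Atp5d to -0.87 for the heart isoform Cox7a1 in log2 fold change. The call of Atp5d was lost on leaving out any library but 24 h replicate 1. All 23 genes of the citric acid cycle and pyruvate entry fell (median -0.60), the largest being Suclg1, at 359, 343 and 349 CPM in sham and 242, 198 and 172 CPM at 24 h. Of 26 fatty acid genes 20 fell (17 without replicate 3 and 16 under library-size scaling) and 1 rose. Cpt1b, the heart's carnitine transferase, was at -0.81, and Acadm at -0.76. The 1 that rose was Pdk4, the kinase that blocks pyruvate oxidation (1.33 [0.74], adjusted p = 0.0456), and its call was lost on leaving out any library but 24 h replicate 2. Under library-size scaling 34 of the 41 respiratory chain genes and 19 of the 23 citric acid cycle genes were still called lower, and the medians were -0.40 and -0.41. Without replicate 3 the lower calls were 35 and 21. Of 19 genes of branched-chain amino acid and ketone use, 16 fell, among them the phosphatase gene Ppm1k (-0.81).

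The mitochondrially encoded genes were less clearly lower, with 4 of 13 called and a median of -0.42. The lower calls were 7 without replicate 3, 2 without replicate 2 (median -0.27) and 2 under library-size scaling (median -0.23). The most abundant of them, mt-Co1, was at 109880.0, 115950.0 and 100440.0 CPM in sham and 96210.0, 61417 and 90604 CPM at 24 h, where replicate 2 was far below the others, and was not called (adjusted p = 0.0974). Of 18 metabolic regulators 10 fell (5 under library-size scaling) and 1 rose. Without replicate 3, 6 fell and 0 rose. Perm1 (-1.10), Rxrg (-1.09) and Ppargc1a (-0.66), whose products drive mitochondrial gene expression, fell, Ppargc1a losing its call without replicate 3, and Ppara was not called. Mb, the oxygen-binding myoglobin gene, fell from 12275, 12686 and 12285 CPM to 8856, 6985 and 6405 CPM.

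Glucose genes split by isoform. Slc2a1, the widely expressed glucose transporter GLUT1, rose from 18, 18.4 and 16.8 CPM to 78.6, 49.0 and 208 CPM, while the insulin-responsive Slc2a4 (GLUT4) fell from 422, 394 and 382 CPM to 212, 204 and 107 CPM. Both were farthest from sham in replicate 3. The lactate exporter gene Slc16a3 rose 30.2-fold [14.1], from 4.25, 3.94 and 5.29 CPM to 82.5, 44.8 and 282 CPM. The muscle phosphofructokinase Pfkm fell (log2 fold change -1.05) and the platelet form Pfkp rose (1.41), and Ldhb fell (-0.90) as Ldha rose (0.46). The bifunctional enzyme genes were also split, Pfkfb4 up (1.41) and Pfkfb2 down (-1.14). Among hypoxia-responsive genes, Car9 (2.05) and Hif1a (0.97) rose, Epas1 (-0.65) and Egln1 (-0.67) fell, and Pdk1, Bnip3 and Vegfa were not called. The list held 14 higher and 9 lower calls among 34.

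Immediate early genes, which code for transcription factors switched on by stress and growth signals, were higher in 22 of 27 cases and lower in 0. Myc rose 12.6-fold, Egr2 16.1-fold, Atf3 7.78-fold and Fos 7.20-fold. Klf4, a flow-responsive factor of endothelium, was not called. Heat shock genes were mixed, with 9 higher and 3 lower among 21 (1 lower without replicate 3). Hspa1a was at 2.63, 3.06 and 3.46 CPM in sham and 15.7, 7.36 and 33.6 CPM at 24 h, but it shares reads with its copy Hspa1b and both lost their calls without replicate 3. Hsp90aa1, a cytosolic chaperone gene, rose 2.39-fold, and Hspb8 fell (-0.49).

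Endoplasmic reticulum and amino acid stress genes rose in 19 of 27 cases, with 1 lower (0 without replicate 3 or replicate 2). The serine pathway enzymes Phgdh (6.57-fold) and Psat1 (7.36-fold) and the mitochondrial folate enzyme Mthfd2 (7.70-fold) rose with Asns (4.27-fold). The chaperone genes Sdf2l1 (5.29-fold), Creld2 (3.10-fold) and Hspa5 (1.97-fold) rose too. The death-linked targets of the same pathway did not pass the test: Ddit3 (CHOP) was at 0.23, with a 95% confidence interval of -0.10 to 0.55, and Chac1 at -0.22 (-1.08 to 0.63). Among antioxidant genes Hmox1, which degrades haem, rose from 4.4, 5.39 and 5.91 CPM to 74.3, 41.3 and 243 CPM, and Slc7a11, the cystine importer, had a ratio of summed counts of 97.1 (exact 95% interval 44.4 to 265), and of 23.7 (10.6 to 66.0) without replicate 3. The mitochondrial superoxide dismutase gene Sod2 fell (-0.62), as did Prdx3 (-0.41). Metallothionein Mt2 rose 29.1-fold and Mt1 4.03-fold.

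Of 29 cell death genes 18 rose and 0 fell (1 fell without replicate 2). Nlrp3, the inflammasome sensor, rose 18.6-fold [6.59], Ripk3, a kinase of necroptosis, 3.81-fold [2.46], and its target Mlkl 1.98-fold. Apoptosis genes included Pmaip1 (10.6-fold [5.22]) and Bax (2.08-fold). The survival genes Bcl2a1b and Bcl2a1d, near-identical copies whose counts may be split, rose 13.8-fold [8.65] and 19.9-fold [10.8], while Casp1 was not called. Among the 11 genes of muscle wasting, the ligase genes Trim63 and Fbxo32 were not called, and Rnf207, a ligase gene of heart muscle, fell 3.06-fold.

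Cell cycle genes rose from low levels, 21 of 31 higher and 1 lower (2 lower without replicate 3), and only 12 were called higher without 24 h replicate 2. Top2a, which untangles DNA in dividing cells, was at 0.607, 0.674 and 1.2 CPM in sham and 2.29, 7.39 and 1.75 CPM at 24 h, and Mki67 at 1.67, 0.519 and 1.33 CPM and 2.20, 6.12 and 2.17 CPM. In both, replicate 2 was highest and replicates 1 and 3 were level. Without replicate 2 the log2 fold change of Top2a went from 2.22 to 1.27, and Mki67 was not called. The cell cycle inhibitor gene Cdkn1a rose 7.57-fold [4.96]. Cenpf, a kinetochore gene not on the list, went the other way, from 17.0, 10.8 and 9.20 CPM to 4.88, 3.18 and 1.19 CPM (adjusted p = 4.35e-04). Of DNA methylation genes, Uhrf1, which guides maintenance methylation after replication, rose 7.36-fold, and Tet1 fell 2.77-fold.

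Clock genes were mostly lower, 10 of 19 against 3 higher, and 0 were called higher without replicate 3. The output factors Dbp (-1.50), Hlf (-1.46) and Tef (-0.82) and the repressor Ciart (-1.49) fell, and Arntl (BMAL1) rose from 1.42, 1.04 and 1.02 CPM to 3.54, 1.63 and 5.41 CPM, a call lost without replicate 3. The labels give no hour of the day for the killing of the animals, so time of day and ligation cannot be told apart for these genes.

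Genes of the translation machinery were higher. All but 1 of 22 ribosome biogenesis genes rose (median 0.88), Rrp12 2.60-fold and the nucleolar protein gene Npm1 2.02-fold. Of 40 ribosomal protein genes 37 rose by small amounts (median 0.39). The higher calls were 27 without replicate 2, 27 with the 6 libraries alone and 40 under library-size scaling. Rpl3 rose most (2.27-fold). Its muscle-specific relative Rpl3l fell from 276, 286 and 274 CPM to 145, 127 and 80.5 CPM, so the pair moved apart by 24 h. The proteasome list was near the background, with 5 higher and 4 lower among 22 (17 and 0 under library-size scaling, and 1 lower without replicate 3). Of 18 cathepsin and lysosome genes 9 rose (15 under library-size scaling), with the macrophage protease gene Ctss at 6.45-fold.

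Enzymes that handle foreign compounds and retinoic acid held the largest decreases. Cyp1a1, the classic target of the aryl hydrocarbon receptor, had 139, 253 and 468 CPM in sham and 2.55, 0.46 and 0.258 CPM at 24 h. Its log2 fold change was -8.03 ± 1.00 (adjusted p = 5.70e-05) and -9.55 without 24 h replicate 1, and the sham mice themselves varied widely. The receptor's repressor gene Ahrr, which responds to the same receptor, fell 3.67-fold, and Cyp1b1 was not called. Cyp26b1, which breaks down retinoic acid, was at 55.4, 277 and 18.3 CPM in sham and 10.4, 8.70 and 6.96 CPM at 24 h, while Aldh1a2, which makes retinoic acid, rose from 3.13, 3.99 and 4.89 CPM to 38.8, 65.9 and 75.2 CPM. Aldh1a3 rose 5.85-fold and Aldh1a1 fell 2.18-fold.

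The other large decreases were in genes of modest level. Inmt, a methyltransferase gene, fell 8.63-fold, Lgi3 6.65-fold, the collagen gene Col6a6 6.15-fold, the channel subunit gene Cngb3 6.10-fold, Snai3 5.30-fold, Akap5 5.19-fold, and the organic cation transporter gene Slc22a3 4.82-fold. The log2 fold change of Cngb3 went from -2.61 to -3.24 without replicate 1, and that of Akap5 from -2.38 to -3.03 without replicate 2. Lrrc15 fell from 41.4, 43.4 and 40.5 CPM to 12.1, 12.0 and 2.06 CPM. Atcay fell 5.37-fold with its antisense partner Atcayos (3.11-fold), and the antisense gene Uckl1os fell 5.09-fold. Use of strand in counting was not stated, so reads of a gene and its antisense partner may be mixed. Decreases with the smallest p included the semaphorin receptor gene Plxnb1, from 72.7, 66.4 and 67.3 CPM to 19.7, 20.2 and 12.6 CPM, Rbfox1, a splicing factor gene (-1.58), Pitpnc1 (-0.93) and Lsmem1 (-1.64). Among abundant genes, Lynx1 (-1.35) and the triglyceride synthesis gene Dgat2 (-1.28) fell most after Hrc.

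Large or tight increases outside the lists were found in myeloid genes and in others. Sprr1a, a stress gene of cardiomyocytes and nerve, was at 0.101, 0.0519 and 0 CPM in sham and 15.6, 30.5 and 15.8 CPM at 24 h, highest in replicate 2, a ratio of summed counts of 443 (exact 95% interval 151 to 2152). That ratio was 341 (116 to 1656) [141, 47.8 to 686] for Saa3, an acute phase gene, and 403 (138 to 1957) [221, 75.2 to 1075] for Sh2d5. Of the myeloid receptor genes Cd300lf and Sirpb1c, members of families with close copies, the first went from 1 count to 2864 counts, a ratio of 2489.6 (446 to 98368) [913, 163 to 36120.5]. Sirpb1c had no counts in sham and was at least 33.0-fold higher [21.3], against 3 counts in each sham library. Syt12, a synaptotagmin gene, had the smallest p of all increases, at 2.02, 1.76 and 1.87 CPM in sham and 17.1, 18.3 and 23.5 CPM at 24 h (log2 fold change 3.38 ± 0.16, adjusted p = 3.45e-10). Uck2, a uridine kinase gene that supplies nucleotides, went from 37.6, 39.2 and 40.0 CPM to 279, 278 and 376 CPM. Lrp8 rose 27.5-fold and the abundant reticulon gene Rtn4 5.12-fold.

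Genes commonly used as references were not level. Of 21 tested, 12 were higher and 1 lower, with Actb up from 309.6, 251 and 328 CPM to 699, 928 and 1379 CPM, Ppia up 2.74-fold and Eef1a1 up 1.91-fold. Gapdh, not called, was at 9.15, 8.19 and 184 CPM in sham and 210.2, 158 and 266 CPM at 24 h, so that 1 sham library was near the 24 h values and the others far below. Gapdh and Ppia have many processed copies in the genome, and the counts of such genes are uncertain. Of those not called, Tbp was at 0.06.

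The 24 h mice differed from one another by process, as the plot of lists in each 24 h library shows. For the CXC list the medians over members of log2 CPM minus the sham mean were 5.46, 3.09 and 7.69 in replicates 1, 2 and 3, and for the neutrophil list 5.37, 3.33 and 7.12. The matrix list had another order, 0.92, 1.55 and 1.31, and so did the cell cycle list, 0.71, 1.71 and 0.71, with replicate 2 highest in both. For the respiratory chain the medians were -0.35, -0.57 and -0.85, lowest in replicate 3, and for fatty acid genes -0.21, -0.86 and -0.83. The genes with the widest range at 24 h were mostly genes known from neutrophils and other myeloid cells. Retnlg had 6.69, 0.354 and 38.1 CPM, Stfa2l1 2.16, 0.177 and 11.5 CPM and Acod1, which makes itaconate, 1.17, 0.531 and 27.6 CPM in replicates 1, 2 and 3. Without replicate 3, the log2 fold change of Il1a fell from 6.17 to 2.36 and that of Acod1 from 7.46 to 3.94.

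**Figure D4:**
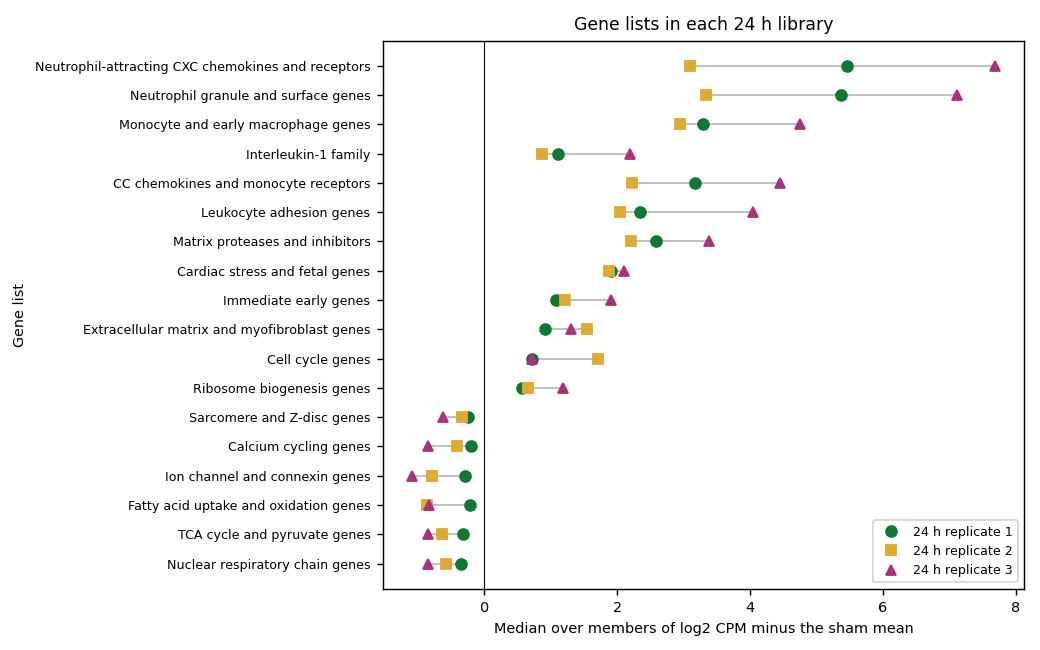
Median over the members of 18 gene lists of log2 CPM minus the sham mean (horizontal axis), for each of the 3 ligated mice. Inflammatory lists are highest in replicate 3 and lowest in replicate 2, whereas the extracellular matrix and cell cycle lists are highest in replicate 2.

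Set against the neighbouring times, 4541 genes (27.8%) differed between 24 h and 6 h (2311 higher and 2230 lower, but 6052 and 828 under library-size scaling) and 8231 (50.5%) between 72 h and 24 h (3980 and 4251, but 7285 and 1651). At 24 h, 304 genes (1.86%) were called above both 6 h and 72 h and 228 (1.4%) below both. Only 198 genes (1.21%) were called above each of sham, 6 h and 72 h, and 132 (0.809%) below them, and without 24 h replicate 3 these counts were 114 and 74. Among those with the largest rise from sham was F10, coagulation factor X, at 0.0929 ± 0.0891 CPM (SD, n = 3) in sham, 3.32 ± 1.79 at 6 h, 28.6 ± 31.9 at 24 h and 7.63 ± 1.94 at 72 h. Without 24 h replicate 3, the log2 difference of F10 from 24 h to 72 h went from -1.90 to -0.45 and was not called (edgeR adjusted p = 0.347). Nmrk2, a nicotinamide riboside kinase gene, was at 8.19 ± 0.877, 92.4 ± 36.0, 187 ± 28.3 and 36.7 ± 6.20 CPM in the same order, and its 24 h mice were close together. Fhl1, a LIM protein of stretched muscle, went from 86.4 ± 3.42 through 360.2 ± 123 and 742 ± 137 to 169 ± 32.0 CPM. The lowest point at 24 h was seen for Cxcl9, at 6.60 ± 0.569, 5.57 ± 1.56, 1.57 ± 0.477 and 4.39 ± 1.33 CPM, for Cenpf, at 12.3 ± 4.12, 7.0 ± 1.67, 3.08 ± 1.85 and 19.9 ± 2.63 CPM, and for Cyp1a1, at 287 ± 167, 12.1 ± 0.382, 1.09 ± 1.27 and 7.26 ± 5.45 CPM. For Cyp1a1 and Cenpf the difference from 6 h was not called without 24 h replicate 2 or without replicate 3. For other genes the mean at 24 h lay apart from that of a neighbouring time. Postn was at 80.8 ± 28.0 CPM at 24 h and 1565 ± 45 at 72 h. Il6 was at 26.3 ± 19.6 CPM at 6 h and 5.33 ± 6.76 at 24 h, with wide spreads at both times. These 3 comparisons share libraries, so their values are given side by side only.

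**Figure D5:**
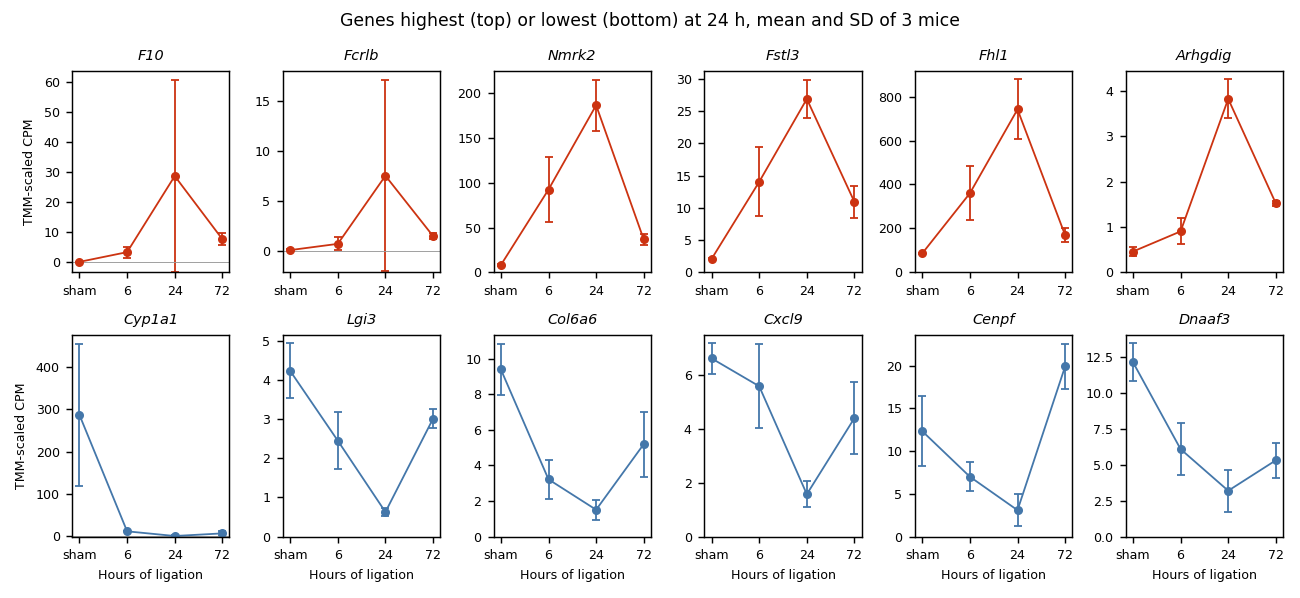
Mean TMM-scaled CPM with SD (n = 3 mice, vertical axes from 0 except where the SD reaches below it) in sham and after 6, 24 and 72 h of ligation (evenly spaced) of genes called highest (top row) or lowest (bottom row) at 24 h. The 24 h spread is wide for F10 and Fcrlb and narrow for Nmrk2, Fstl3 and Arhgdig.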

How the data were processed

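Per the submitters' processing notes, the reads were trimmed and aligned with cutadapt 1.18 and HISAT2 2.1.0, and featureCounts and the build mm10 are named. The authors deposited raw read counts per gene and FPKM values, which are the same counts divided by gene length and library total. Use of strand and of reads with several matches is not given in the sources used here. Counts of 16311 genes passing filterByExpr, of 30583, were fitted with edgeR 4.0.16 (R 4.3.3) by quasi-likelihood with TMM scaling, with 1 mean for each of the 6 groups over all 18 libraries. DESeq2 1.42.0 and limma 3.58.1 on log2(FPKM + 1) served as alternatives, with other scalings, filters and left-out libraries. The fit was tested on simulated counts. Adjusted p-values cover all genes tested. For genes with at most 3 counts in every sham library, summed counts per effective depth were compared with an exact conditional binomial interval, or, with no sham counts, the mean 24 h CPM was divided by that of 3 counts in each sham library ("at least"). Both cover counting error only, as no molecular identifiers are described.

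The members and the 50 gene lists were chosen with earlier results of these data known. Genes named were list members, the largest (at least 50 mean counts over the 6 libraries, groups apart) and smallest-p changes, the most abundant genes, those with the widest range at 24 h, and those highest or lowest at 24 h among times. Symbols came from GENCODE M21, which matched 30512 gene IDs. The labels say that each library is a separate mouse.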

Additional observations from a re-analysis of the deposited data

Results flagged for a closer look

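The level at 24 h differed from both neighbouring times, in opposite senses, for 12 genes. They were chosen by size of change from sham among the genes called above or below sham, 6 h and 72 h alike, so the opposite senses and the calls were fixed by the choice. The differences are log2 values by edgeR, 24 h minus 6 h and then 72 h minus 24 h. Higher at 24 h than at both times were F10 (3.11 and -1.90), Fcrlb (3.45 and -2.33), the nicotinamide riboside kinase gene Nmrk2 (1.01 and -2.35), the activin-binding Fstl3 (0.94 and -1.30), Fhl1 (1.04 and -2.13) and Arhgdig (2.09 and -1.33). Lower at 24 h than at both were Cyp1a1 (-3.47 and 2.73), Lgi3 (-1.95 and 2.24), Col6a6 (-1.06 and 1.77), the chemokine gene Cxcl9 (-1.80 and 1.46), Cenpf (-1.17 and 2.67) and Dnaaf3 (-0.91 and 0.71). The 24 h libraries enter both differences, which are not independent of each other. Without 24 h replicate 3 the differences of F10 were 1.65 and -0.45 and those of Fcrlb 1.56 and -0.44, and at least 1 of the pair was not called for F10, Fcrlb, Cyp1a1, Col6a6, Cenpf and Dnaaf3. Those of Cyp1a1 were -4.98 and 4.26 without 24 h replicate 1, and the first difference of Fcrlb was 4.48 without 6 h replicate 1.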

How the results depend on the processing

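No gene called between 24 h and sham in the reported comparison was called in the opposite direction under any alternative run. The 7149 calls became 7343 with DESeq2, 7156 with relative log expression scaling, 6256 with a minimum of 10 counts, 6505 with no filter, 5509 with the 6 libraries alone, 7363 with library-size scaling, and 7312 and 7144 with limma on log2(FPKM + 0.1) and log2(FPKM + 1). Lower calls fell to 1805 by library size and to 1884 and 1851 by limma, and at least 2-fold calls from 2418 to 1374 with the minimum of 10 counts and to 945 by limma with FPKM + 1. Leaving out 1 library gave 5466 to 7566 calls, 3095 to 4135 higher, 2371 to 3431 lower and 1822 to 2912 of at least 2-fold. The cause was not tested.

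For 24 h against 6 h, the 4541 calls became 6880 by library size and 1024 with the libraries compared alone. Higher calls were 6052 by library size, 5906 and 5655 by limma with 0.1 and 1, and 539 with these libraries alone, and lower calls 828, 851, 820 and 485. At least 2-fold calls were 672 (minimum of 10 counts), 394 (limma with 1) and 516 (these libraries alone). For 72 h against 24 h, higher calls were 7285 by library size, and 7444 and 7712 by limma, lower calls 1651, 1592 and 1580, and at least 2-fold calls 1929 (minimum of 10 counts) and 1749 (limma with 1). Leaving out 1 library gave 3607 to 5028 calls for the first comparison and 7087 to 8475 for the second.

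With the replicate number as a block there were 7091, 4451 and 8147 calls. The correlations of same-numbered 24 h and sham libraries were -0.03, -0.08 and 0.03. For 24 h and 6 h libraries they were -0.22, 0.12 and -0.26, and for 72 h and 24 h libraries 0.25, -0.13 and 0.06, with both signs in each.

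Genes not called changed sign in places. Acta2 was at 0.10 by library size and 0.11 by limma with either pseudocount, and ran from -0.24 to 0.037 when 1 library was left out. In the same way Chac1 ran from -0.47 to 0.050, Cx3cr1 from -0.38 to 0.40 and Ddit3 from -0.026 to 0.36. No detection limit by depth was computed.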

Other observations

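By distance in log2 CPM over the 500 most variable genes, all 3 ligated mice at 24 h lay nearer to the 6 h mice than to the 72 h mice, but not equally. Replicate 1 was at a mean distance of 35.0 from the 6 h libraries and 66.4 from the 72 h libraries, replicate 2 at 46.7 and 57.2, and replicate 3 at 45.2 and 73.1. Neutrophil markers summed to 372 CPM at 6 h and 68.6 CPM at 72 h, so replicate 3 was above both means and replicate 2 below both. The mitochondrially encoded share was 25.1% at 6 h and 9.71% at 72 h, with all 3 libraries of 24 h between them.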
